A study of Mus musculus with 24 samples.

Results

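WNT proteins are secreted, lipid-carrying signals that bind Frizzled receptors, alone or together with the co-receptors LRP5 and LRP6. In the canonical branch this binding stops the destruction complex from degrading beta-catenin, which then works with TCF and LEF factors in the nucleus, while other branches act through Frizzled without beta-catenin. R-spondins raise the number of receptors at the cell surface, and secreted antagonists of the DKK, SFRP and WIF families hold the signal back. In bone, canonical WNT signalling is known for favouring the osteoblast fate.

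The genes described here are the WNT ligands, Frizzled receptors, DKK and SFRP antagonists and R-spondins of the mouse genome, taken by symbol from the RNA-seq table of YAPCA periosteal cells, together with Lrp5, Lrp6, Ctnnb1, Lef1, Tcf7, Axin2, Nkd1, Nkd2 and Wif1. They number 50 of the 35975 genes in that table. Periosteal cells come from the layer that covers bone and were grown as primary cultures. YAPCA cells carry a tetO-YAPS127A transgene, which doxycycline (Dox) switches on to make a form of the transcriptional co-activator YAP that Hippo kinases cannot restrain at that residue, with the rtTA activator in the allele Gt(ROSA)26Sortm1(rtTA,EGFP)Nagy/J. Both YAPCA groups, untreated and Dox, also carry the Cre line B6.C-tg(CMV-Cre)1Cgn/J, a general deleter. Wild-type C57BL6 cells went through the same 2 conditions.

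Dox was used at 1 µM in 10% serum, and untreated cells stood as controls with no vehicle. Stock cultures were kept in 15% serum, and the sources used here give neither the serum of the untreated controls during treatment, nor its length, nor the age and number of animals. Each condition had 3 polyA RNA-seq samples and 3 samples of ATAC-seq, a measure of open chromatin, giving 8 groups and 24 samples in all. Samples of a group are labelled TechRep, and a p-value here therefore covers the spread among such samples alone, possibly a technical one. In these bulk cultures, fewer cells of a type and less RNA per cell cannot be told apart.

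The 6 YAPCA RNA libraries held 16351891 to 28734643 reads over genes. The row of the targeted gene, Yap1, was 5134, 4945 and 5042 normalised read counts untreated and 4732, 4766 and 4896 with Dox (limma adjusted p 0.0697). Whether reads of the transgene fall in this row is not stated, so it does not check the labels. The YAP target genes Cyr61, Ctgf, Ankrd1 and Amotl2, looked at after the data were known, rose by 0.60, 0.79, 0.62 and 0.43 on the log2 scale, with the highest of their limma adjusted p at 1.26e-07. All 6 markers of periosteal and skeletal mesenchymal cells were detected, and their summed level was 329622 to 352781 untreated and 250894 to 254150 with Dox, with falls in Pdgfra, Prrx1, Postn and Col1a1. The summed level of 3 osteoblast markers was 317 to 339 untreated and 155 to 172 with Dox. Of these, Sp7 fell, Ibsp was below a mean of 10 and Bglap was at 0. Endothelial markers summed to 60.5 to 85.2 against 80.8 to 118 with Pecam1 and Emcn below 10, and macrophage markers to 341 to 386 against 335 to 345 with Ptprc and Adgre1 below 10. All epithelial and muscle markers were below 10, with sums of 4.50 to 16.9 and 0.998 to 9.26. The part of these shifts in the results that follow was not tested.

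Of the 50 WNT genes, 32 reached a mean of 10 normalised read counts and were tested, and 14 of them passed, 4 higher and 10 lower with Dox. The test was limma on log2(normalised read count + 1) with a Benjamini-Hochberg adjusted p below 0.05 over 13477 genes, of which 27.9% passed, 14.3% higher and 13.5% lower. DESeq2 on recovered reads called 8 of the 14 against 22.4% of its genes, edgeR called all 14 against 28.4%, and the authors' deposited table calls 8 WNT genes against 20.8%. Dkk2, Fzd5, Wnt9a and Wnt5a rose, and Sfrp2, Wnt10b, Sfrp4, Fzd1, Rspo2, Dkk3, Fzd7, Nkd2, Wnt2 and Sfrp1 fell. Untreated and Dox values stood apart, with no overlap, for 17 of the 32, against 41% of all tested genes. The median log2 change of the 32 was -0.09 and their median absolute change 0.20, against 0.00 and 0.11 over all tested genes. A filter on low values stands behind the 32, so these counts describe the genes that were measured and not all 50. Of the 32, 12 overlap another annotated gene, with which reads may be shared, and Wnt9a and Nkd2 are those among the 14.

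The secreted antagonists held the largest rise and the largest fall of the 32. Of 6 antagonists tested, Dkk2 rose, Sfrp1, Sfrp2, Sfrp4 and Dkk3 fell, and Wif1 did not pass. Frzb, an SFRP relative that the choice by symbol leaves out, was read at 70.4, 71.3 and 70.4 untreated and at 93.8, 82.8 and 82.1 with Dox. Its groups did not overlap, but its log2 change of 0.28, opposite to the tested Sfrp genes, did not pass (limma adjusted p 0.140). The ligands were divided, with 2 of 8 higher and 2 of 8 lower, and the receptors had 1 of 10 higher and 2 of 10 lower. Of 6 genes of signal transduction or feedback, Nkd2 fell and the other 5 did not pass.

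**Figure D1:**
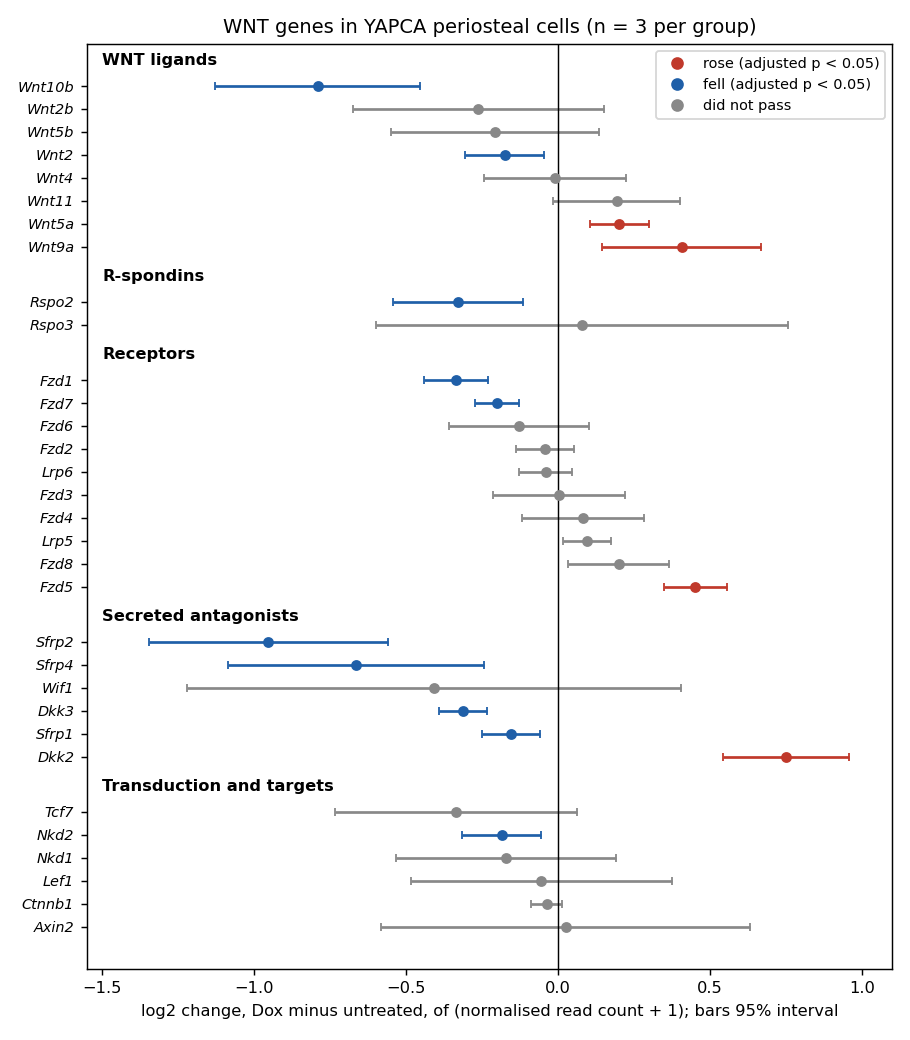
Log2 change with Dox (x axis, Dox minus untreated, of normalised read count + 1) of each of the 32 tested WNT genes (y axis, grouped by role) in YAPCA cells, with points for the estimate, bars for its 95% interval and n = 3 libraries a group. Dkk2 lies farthest to the right at 0.75 and Sfrp2 farthest to the left at -0.95.

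Sequence before the start of 3 genes that passed, chosen after their values were seen, is shown first, from RefSeq GRCm38.p6 upstream of the annotated gene. They are Dkk2 (chr3:132085042-132085265, plus strand, 224 bases), Fzd5 (chr1:64737751-64738000, minus strand, 250 bases) and Wnt10b (chr15:98778207-98778400, minus strand, 194 bases). Capitals mark CpG dinucleotides. None of the 3 stretches lay under an open-chromatin site listed as changed in YAPCA cells.
Dkk2: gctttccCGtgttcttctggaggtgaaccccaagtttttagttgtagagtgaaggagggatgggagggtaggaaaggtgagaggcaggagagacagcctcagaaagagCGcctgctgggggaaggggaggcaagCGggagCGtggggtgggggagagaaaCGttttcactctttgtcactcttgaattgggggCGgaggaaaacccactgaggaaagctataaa
Fzd5: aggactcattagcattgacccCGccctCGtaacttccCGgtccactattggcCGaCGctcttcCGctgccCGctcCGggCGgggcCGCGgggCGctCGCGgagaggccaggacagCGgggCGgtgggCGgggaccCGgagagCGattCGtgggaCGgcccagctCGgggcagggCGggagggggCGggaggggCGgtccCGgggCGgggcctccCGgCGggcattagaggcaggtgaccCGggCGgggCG
Wnt10b: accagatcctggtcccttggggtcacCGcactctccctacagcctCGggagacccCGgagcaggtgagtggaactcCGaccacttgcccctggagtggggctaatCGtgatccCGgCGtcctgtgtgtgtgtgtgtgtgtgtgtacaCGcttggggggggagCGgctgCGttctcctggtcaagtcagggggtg
The stretch before Fzd5 held 32 CpG and was 76.4% G or C, that before Wnt10b held 10 at 63.9% and that before Dkk2 held 6 at 54.5%. The median of all 32619 promoter windows was 6 CpG and 52.4% in 250 bases.

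Dkk2 encodes a dickkopf protein that binds LRP5 and LRP6. Its normalised read counts were 148, 131 and 160.4 untreated and 234, 255 and 251 with Dox. Every Dox library was above every untreated one, and the log2 change was 0.75 ± 0.098 (SE, n = 3 a group, limma adjusted p 2.70e-05), or 1.68 times. The relatives Dkk1 and Dkk4 had no read in any of the 6 libraries.

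Dkk3 encodes a dickkopf relative that, unlike DKK1 and DKK2, is not known as a strong binder of LRP6. It was read at 3125, 3096 and 3219.7 untreated and at 2432, 2485 and 2693 with Dox. The groups stood apart, and the log2 change was -0.31 ± 0.038 (SE, limma adjusted p 1.20e-05). Dkk2 and Dkk3 thus changed in opposite directions.

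SFRP proteins carry a Frizzled-like domain and bind WNT ligands outside the cell. Sfrp2 was read at 73.6, 87.9 and 87.2 untreated and at 42.2, 32.9 and 54.0 with Dox, with no overlap. Its log2 change was -0.95 ± 0.19 (SE, limma adjusted p 0.00105), so that the Dox level was 0.517 times the untreated one. Sfrp4 was read at 41.6, 55.5 and 59.1 untreated and at 34.6, 33.9 and 28.1 with Dox, again without overlap, for a log2 change of -0.67 ± 0.20 (SE, limma adjusted p 0.0195).

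Sfrp1 gave 20210.0, 19197 and 21548 normalised read counts untreated and 17368, 17568 and 19874 with Dox. Its highest Dox library lay above the lowest untreated one, the only overlap among the 14 genes that passed. The log2 change was -0.15 ± 0.046 (SE, limma adjusted p 0.0184). The Sfrp1 call was lost without untreated library 1 (adjusted p 0.0576) or 3 (0.0783) or Dox library 1 (0.107) or 2 (0.101), and by DESeq2 (0.157). The Sfrp4 call was lost without untreated library 2 (0.0764) or 3 (0.0747) or Dox library 3 (0.0545), and by DESeq2 (0.0679).

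Wif1, which binds WNT ligands through its own domain, was read at 16.0, 8.33 and 16.9 untreated and at 10.1, 5.99 and 14.6 with Dox. The groups overlapped, and the 95% interval of the log2 change ran from -1.22 to 0.41. Sfrp5 had at most 1 read in a library and was not tested.

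**Figure D2:**
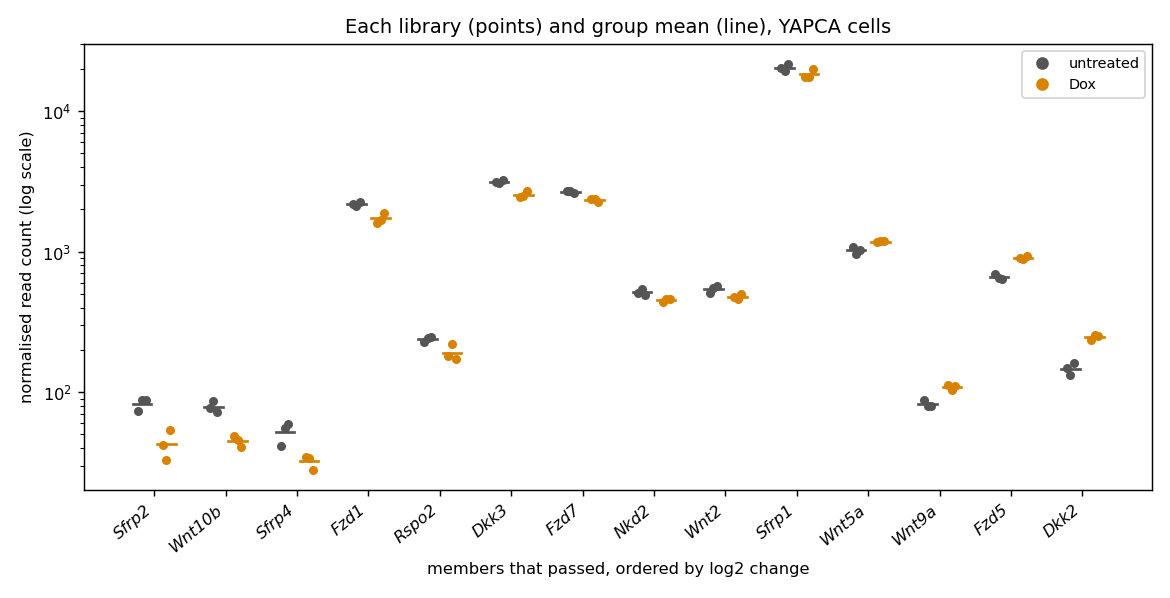
Normalised read count (y axis, log scale) of the 14 WNT genes that passed (x axis, ordered by log2 change) in each of the 3 untreated and 3 Dox libraries of YAPCA cells (points) with the group mean (line). The points of the 2 groups do not overlap for 13 of the 14 genes, and those of Sfrp1 do.

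Among the ligands, Wnt10b is known for favouring bone formation over fat through beta-catenin. It was read at 77.6, 87.0 and 71.8 untreated and at 49.002, 45.9 and 40.5 with Dox. All Dox libraries were lower, and the log2 change was -0.79 ± 0.16 (SE, limma adjusted p 0.00141), or 0.578 times the untreated level. Wnt2, also a ligand of the canonical branch, was read at 505, 552 and 566 untreated and at 476, 463 and 497 with Dox, for a log2 change of -0.18 ± 0.061 (SE, limma adjusted p 0.0420). The groups of Wnt2 did not overlap, but its call was lost without untreated library 2 (adjusted p 0.123) or 3 (0.130) or Dox library 1 (0.107) or 2 (0.140), and by DESeq2 (0.122).

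Wnt5a, the prototype of the ligands that act without beta-catenin, was read at 1085, 964 and 1029 untreated and at 1168, 1182 and 1184 with Dox. The 3 Dox libraries lay close together and above all untreated ones, with a log2 change of 0.20 ± 0.046 (SE, limma adjusted p 0.00369), or 1.15 times. Wnt9a, a ligand with a known part in joint formation, was read at 87.2, 79.6 and 80.2 untreated and at 113, 104 and 111 with Dox. These groups did not overlap either, and the log2 change was 0.41 ± 0.12 (SE, limma adjusted p 0.0214). The Wnt9a call was lost without untreated library 2 (adjusted p 0.0657) or Dox library 1 (0.0774) or 3 (0.0522), and by DESeq2 (0.0923). Wnt9a overlaps the predicted gene Gm51865, and without the strand setting of the counting their reads cannot be told apart.

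Wnt4 was read at 204, 168 and 203 untreated and at 181, 174 and 216 with Dox, with overlapping groups and a log2 change of -0.01 (95% interval -0.24 to 0.22). Wnt11, a ligand of the branches without beta-catenin, was read at 171, 179.6 and 151 untreated and at 194, 196 and 182 with Dox. Its groups did not overlap, yet its log2 change of 0.19 (95% interval -0.02 to 0.40) did not pass. Wnt5b and Wnt2b, with means of 57.2 and 38.8, gave log2 changes of -0.21 and -0.26 with overlapping groups. Of the other 11 ligands, Wnt3, Wnt3a, Wnt8b and Wnt9b had no read in any library, which at these depths allows up to 0.104 to 0.183 RPM (3 reads of a library, counting error alone). Wnt1, Wnt6, Wnt7a, Wnt7b, Wnt8a, Wnt10a and Wnt16 had at most 4 reads in a library.

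Of the R-spondins, which act through LGR4, LGR5 and LGR6 to keep WNT receptors at the surface, Rspo2 fell. It was read at 226, 243 and 248 untreated and at 180.0, 221 and 172 with Dox, so that Dox library 2 came near the lowest untreated one without reaching it. The log2 change was -0.33 ± 0.10 (SE, limma adjusted p 0.0225). The Rspo2 call was lost without untreated library 2 (adjusted p 0.0696) or 3 (0.0616) or Dox library 1 (0.0886) or 3 (0.0730), and by DESeq2 (0.0546). Rspo3 was read at 14.4, 12.03 and 25.3 untreated and at 21.1, 12.97 and 19.1 with Dox, too near the floor for more than a wide interval of -0.60 to 0.76. Rspo1 had at most 3 reads in a library and Rspo4 none.

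Frizzled proteins are the seven-pass receptors of WNT ligands. Fzd5 was read at 692, 651 and 639 untreated and at 901, 880.1 and 928 with Dox. All 3 Dox libraries were above the untreated range, with a log2 change of 0.45 ± 0.049 (SE, limma adjusted p 4.00e-06), or 1.37 times.

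Fzd1 and Fzd7, which belong to the same receptor subfamily as Fzd2, fell. Fzd1 was read at 2171, 2101 and 2237 untreated and at 1600.2, 1681 and 1887 with Dox, a log2 change of -0.34 ± 0.049 (SE, limma adjusted p 8.89e-05). Fzd7 was read at 2719, 2713 and 2593 untreated and at 2376, 2363 and 2244 with Dox, a log2 change of -0.20 ± 0.034 (SE, limma adjusted p 0.000356). Neither gene's groups overlapped. Fzd2 itself was read at 1629.9, 1589 and 1461 untreated and at 1484, 1581 and 1477 with Dox, with overlapping groups and a 95% interval of the log2 change from -0.14 to 0.05. Whether Fzd2 changed less than Fzd1 and Fzd7 was not tested.

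Fzd8 was read at 368, 337 and 298 untreated and at 370.1, 380.2 and 398 with Dox, so that its groups only just separated. Its log2 change of 0.20 ± 0.079 (SE) had a limma adjusted p of 0.0729. It passed without untreated library 1 (0.27, adjusted p 0.0313), was lower without untreated library 3 (0.12, adjusted p 0.270), and had adjusted p of 0.103 to 0.161 without any of the other 4. Fzd3, Fzd4 and Fzd6 had overlapping groups and log2 changes of 0.00, 0.08 and -0.13. Fzd3 was read at 214, 193 and 211 untreated and at 188, 196 and 239 with Dox. Fzd4 was read at 231, 199 and 209.7 untreated and at 212, 216 and 251 with Dox. For these 2 and for Fzd6, read at 168, 138 and 167 untreated and at 138, 148 and 146 with Dox, the 95% intervals reached from -0.36 to 0.28. Fzd9, at 5.63 to 15.0 normalised read counts, stayed below the mean needed for the test, and Fzd10 had no read.

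The co-receptor genes moved little. Lrp5 was read at 1360.4, 1405 and 1358 untreated and at 1491, 1476 and 1437 with Dox, without overlap, for a log2 change of 0.09 (95% interval 0.02 to 0.17, limma adjusted p 0.0680). Lrp6 was read at 4795, 4802 and 5288 untreated and at 4602, 4776 and 5089 with Dox, with overlap and a 95% interval from -0.13 to 0.05.

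Inside the cell, Ctnnb1 encodes beta-catenin, whose amount in the pathway is set by protein stability. Its RNA was read at 15791, 15774 and 15893 untreated and at 15187, 15307 and 15734 with Dox. The groups did not overlap, but the log2 change of -0.04 (95% interval -0.09 to 0.01) did not pass. Nkd2, which binds Dishevelled and dampens the pathway, was read at 509, 545 and 489.7 untreated and at 437, 458 and 462 with Dox, a log2 change of -0.19 ± 0.061 (SE, limma adjusted p 0.0323). The Nkd2 call was lost without untreated library 1 (adjusted p 0.0717) or 2 (0.148) or Dox library 1 (0.121) or 2 (0.0648), and by DESeq2 (0.0830), and Nkd2 overlaps the predicted genes Gm30303 and Gm8062.

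Axin2 is the gene most often read as a measure of canonical signalling, since beta-catenin switches it on. It was read at 15.2, 35.2 and 26.7 untreated and at 23.7, 22.0 and 29.2 with Dox. The Dox values lay within the untreated range, and the 95% interval of the log2 change ran from -0.58 to 0.63. The estimate of 0.02 turned sign by DESeq2 (-0.036) and edgeR (-0.026), and ranged from -0.30 to 0.28 on leaving out a library. Nkd1, a further feedback gene, had a log2 change of -0.17 (-0.53 to 0.19). The transcription factor genes Lef1 and Tcf7 had changes of -0.06 (-0.48 to 0.37) and -0.33 (-0.73 to 0.06). All 4 genes had overlapping groups and means of 25.3 to 48.7, so that only large changes were detectable at this depth.

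Further genes of the pathway were taken from 6 lists, with 63 of 64 names in the table and 55 genes tested. Of these, 6 rose and 21 fell, 49.1% of the 55 against 27.9% of all genes. The lists were chosen with earlier results of these data known, which can shape this share, so no excess is read from it. The median log2 change of the 55 was -0.07. The genes named from these lists are up to 4 of each with the smallest adjusted p, the highest of which was 0.0349 by limma. By list, the genes of ligand secretion and receptor turnover had 0 of 7 higher and 3 lower, and other receptors and modulators 1 of 10 higher and 4 lower. The cytoplasmic relay had 2 of 17 higher and 4 lower, planar polarity 0 of 6 higher and 3 lower, nuclear factors 0 of 10 higher and 6 lower, and further beta-catenin targets 3 of 5 higher and 1 lower.

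Lgr4, an R-spondin receptor, was read at 4909, 4799 and 5163 untreated and at 3008, 2838 and 2983 with Dox. Its groups stood far apart, and its log2 change of -0.75 ± 0.034 (SE, limma adjusted p 2.35e-10) was accompanied by one of -0.45 in the related receptor gene Lgr6 (limma adjusted p 0.000289). Lgr5 and Rnf43, an R-spondin receptor and a ligase that removes Frizzled, were below the mean needed for the test. Trabd2b, a membrane protease that inactivates WNT ligands, fell by 0.13 on the log2 scale.

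Draxin and Lrp4 fell by 0.95 and 0.51 on the log2 scale. Draxin encodes a secreted antagonist and Lrp4 a receptor for the antagonists sclerostin and DKK1. Draxin was read at 129, 116 and 174 untreated and at 60.0, 67.9 and 86.6 with Dox, with no overlap between groups. The gene itself overlaps Mad2l2, with which reads may be shared. Ptk7, a co-receptor gene of the planar polarity branch, fell by 0.15, and the glypican gene Gpc4 rose by 0.26. In the planar polarity list Prickle2, Prickle1 and Vangl2 fell by 0.25, 0.24 and 0.23. Each of these 3 calls was lost by DESeq2 (adjusted p 0.0522, 0.0931 and 0.0656) and without untreated library 3 (0.0611, 0.112 and 0.149) or Dox library 2 (0.0519, 0.0922 and 0.150). Prickle1 and Vangl2 were also lost without untreated library 1 (0.113 and 0.0527) or Dox library 1 (0.124 and 0.0937).

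In the relay list the casein kinase gene Csnk1e and the scaffold gene Apc rose by 0.30 and 0.18 on the log2 scale, while Dact3, which antagonises Dishevelled, and Csnk1a1, a kinase of the destruction complex, fell by 0.45 and 0.14. The co-repressor genes Tle2 and Tle3 fell by 0.56 and 0.31, Tcf7l2, a TCF factor, by 0.21 and the co-activator gene Bcl9l by 0.14. Cd44, Myc and Ccnd1, known as beta-catenin targets in other tissues and under many other controls, rose by 0.37, 0.30 and 0.12, and Twist1 fell by 0.15. Reads may be shared where Tle2 overlaps Tle6, Bcl9l overlaps Cxcr5 and Ccnd1 overlaps LTO1, and several other genes of the lists overlap predicted genes. The Twist1 call was lost by DESeq2 (adjusted p 0.109) and without untreated library 1 (0.0898) or 3 (0.0787) or Dox library 2 (0.0827) or 3 (0.0721).

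In ATAC-seq, the authors' deposited table lists 30496 sites of YAPCA cells with an FDR below 0.05, as group means with no value per sample. Of these, 65 had a WNT gene as the nearest annotated gene, counting a site inside a gene as nearest to it, and they fell to 23 of the 50 genes. By the headings of the main table, 56 of the 65 were gained with Dox and 9 lost, which is 86.2% gained against 87.2% over all sites. A second copy of the table for chromosome 3 gives the same 1932 sites with its group headings exchanged, so the direction of every site here rests on the headings of the main table. The measured genes bear on it through RNA. Of all tested genes with a site, 81.8% of those that rose and 55.9% of those that fell had gained sites alone, and 3.94% and 17.3% had lost sites alone.

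The log2 folds of the 65 sites in the authors' deposited table ran from -0.72 to 1.21, and 6 were above 1, or 9.23% against 10.7% of all sites. Sites inside genes made up 60% against 62.2% of all sites. The annotation used here gives gene ends and not exons, so exonic and intronic sites were not separated. Among the WNT genes, 15 had gained sites alone, 2 had lost sites alone and 6 had both.

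The 2 with a lost site alone were Wnt10b and Sfrp2, which had the largest falls in RNA among the 32. In the authors' deposited table the Wnt10b site (chr15:98774236-98774420, inside the gene) had a log2 fold of -0.72 and an FDR of 0.0301, and the Sfrp2 site (chr3:83752180-83752731, 13019 bp outside the gene) one of -0.48 and 0.00220. Each rests on a single site. Within 50 kb, whatever gene was nearest, Wnt10b had 2 gained sites beside the lost one, and Sfrp2 also had 2. With predicted and small RNA genes left out of the annotation, Sfrp2 was the nearest gene of 2 gained sites and 1 lost, and Wnt10b of its lost site alone.

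Dkk2, the gene with the largest rise, had 7 sites, all gained, 4 inside the gene and 3 between 106233 and 114730 bp outside it. The one of lowest FDR (chr3:132287594-132288087) had a log2 fold of 0.54 and an FDR of 1.97e-08 in the authors' deposited table. Wnt9a had 2 gained sites, the stronger (chr11:59350250-59350664, 16698 bp outside) with a log2 fold of 0.99 and an FDR of 4.46e-10. Wnt5a had 2 gained and 1 lost, with the smallest FDR at chr14:28584327-28584654 (56879 bp outside, log2 fold 0.68, FDR 0.00293). Fzd5 was the nearest gene of none.

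Genes whose RNA fell also had gained sites. Fzd1 had 8 sites, all gained and all outside the gene, and in the authors' deposited table FDR was lowest at chr5:4578032-4578325 (175514 bp outside, log2 fold 0.85, FDR 1.53e-11). Dkk3 had 3 gained sites inside the gene, led by chr7:112142598-112142949 (log2 fold 0.59, FDR 1.32e-06), and Rspo2 had 3, led by chr15:43089377-43089679 (log2 fold 0.77, FDR 0.000349). Sfrp1 had 2, led by chr8:23440243-23440551 (log2 fold 0.95, FDR 4.82e-07), and Sfrp4 had 1 at chr13:19626504-19626829 (log2 fold 0.34, FDR 0.0353).

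Wnt2 had 2 gained sites and 1 lost, and Fzd7 and Nkd2 were the nearest gene of none. Assignment depends on the annotation. With predicted and small RNA genes left out, Fzd7 had 2 gained and 2 lost, Nkd2 1 gained and Fzd8 9 gained, while Fzd5 still had none. Within 50 kb, Nkd2 had 6 gained, Fzd7 2 gained and 1 lost, and Fzd5 2 gained. By nearest gene, RNA and sites thus went opposite ways in Fzd1, Dkk3, Rspo2, Sfrp1 and Sfrp4. They went the same way in Dkk2, Wnt9a, Sfrp2 and Wnt10b. The last 2 rest on 1 site each, and within 50 kb each had 2 gained and 1 lost. Of only 8 WNT genes that fell and had a site, 5 (62.5%) had gained sites alone and 2 (25%) lost sites alone. The shares over the 950 tested genes that fell and had a site were 55.9% and 17.3%. Among genes that did not pass, Lrp6 had 9 gained sites, 8 of them inside the gene, Nkd1 had 3 gained, and Tcf7 had 1 gained and 2 lost. Rspo4, with no RNA read in any library, had 2 gained sites.

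**Figure D3:**
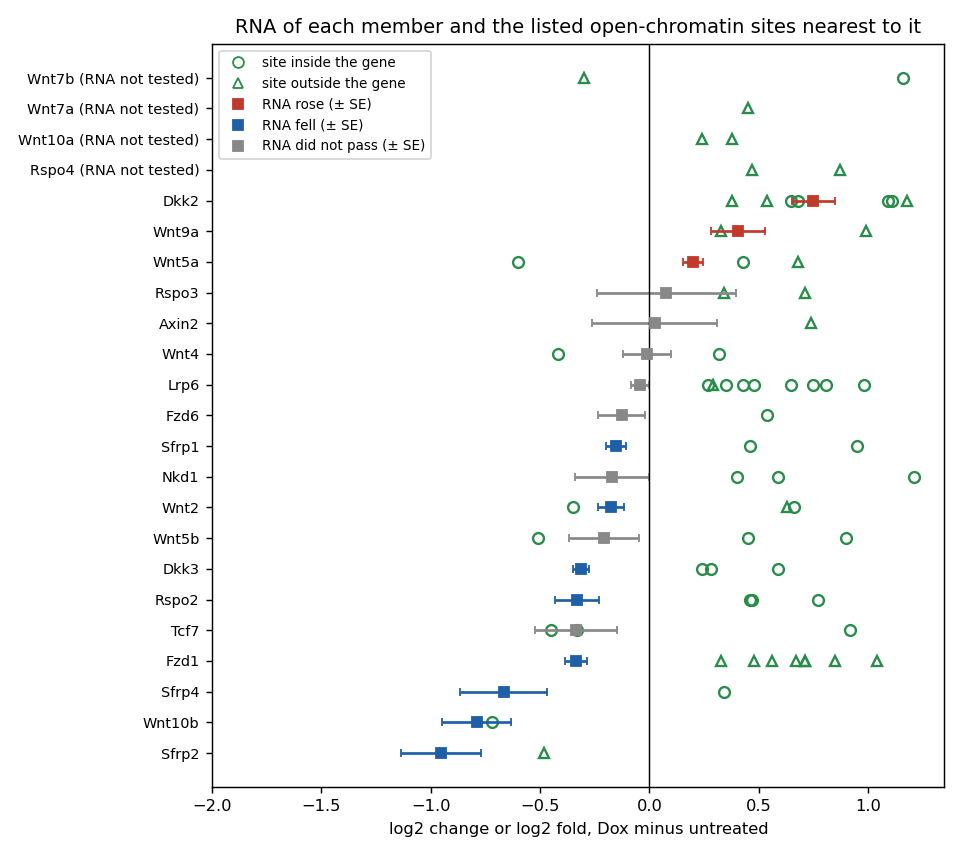
Log2 change (x axis, Dox minus untreated) of the RNA (squares, bars ± SE, n = 3 libraries a group) and of each listed open-chromatin site (open circles inside the gene, triangles outside it) for the 23 WNT genes with a site (y axis, ordered by RNA change). Sites of Sfrp2 and Wnt10b lie to the left with their RNA, while those of Fzd1, Dkk3 and Rspo2 lie to the right of 0 and their RNA to the left.

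RefSeq promoter windows, from 250 bases before to 50 after a start, were at hand for 34 of the 50 genes, in 42 windows, and 0 of the 42 overlapped a site, against 4.61% of all 32619 windows. The other 16 genes had no window, and among them a gained Lrp6 site (chr6:134566662-134567001) spanned an annotated end of the gene at position 134566913. Which end of Lrp6 holds its start was not read here, so this site may lie over the start. Of 37 sites with a start for their gene, the nearest was the lost site of Wnt2, 882 bp away with a log2 fold of -0.35 in the authors' deposited table, followed by that of Wnt10b at 3730 bp, and the median distance was 31.8 kb.

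The windows were searched on both strands for 3 motifs. The TEAD motif GGAATG, through which YAP is known to reach DNA with TEAD factors, was in 1 of the 42 windows, in Wnt5b, against 14.6% of all windows. The AP-1 motif TGANTCA was in 1, also of Wnt5b, against 7.85%, and the TCF and LEF motif CTTTGAT in 2, of Wnt11 and Wnt5b, against 3.76%. These letters can be absent from a window that a factor binds by another sequence, and a match is a description only. The stretch before Wnt11 (chr7:98834862-98835083, plus strand, 222 bases) is shown for its match, in capitals and on the minus strand, 16 bases from its end.
Wnt11: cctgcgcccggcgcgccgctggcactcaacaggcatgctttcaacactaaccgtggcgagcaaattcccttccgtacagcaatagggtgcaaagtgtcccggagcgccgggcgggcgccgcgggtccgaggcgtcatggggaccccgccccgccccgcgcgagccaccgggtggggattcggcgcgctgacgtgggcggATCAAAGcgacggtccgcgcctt

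In wild-type cells, where Dox meets no transgene, the tables used here list called features only. Among 98 listed genes 0 were WNT genes, and among 42 listed sites 0 had a WNT gene as the nearest. Such lists do not give the share of all features that passed, so these counts have no background beside them. In YAPCA cells 65 of 30496 listed sites had a WNT gene as the nearest. Lists this short can leave out any small set of genes, so the 0 counts do not show that WNT genes stayed unchanged. One site, inside Skp1 (chr11:52231565-52232476), lay 14051 bp from Tcf7, with a log2 fold of 0.37 and an FDR of 0.0315 in the authors' deposited table if its fields follow the order of the YAPCA table. A gene that is not listed did not pass in the authors' comparison, and its level in wild-type cells was not analysed here.

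The authors also deposited a score per sample for gene sets, on a scale with no unit. Of 4320 sets, 37 carry WNT or beta-catenin in their names in YAPCA cells, and 3 of these had an FDR below 0.05, or 8.11% against 12.8% of all sets. All 3 were lower with Dox, and all 3 are MEBARKI HCC progenitor sets, named for genes up with WNT. The broadest by name scored 0.24, 0.25 and 0.13 untreated and -0.26, -0.19 and -0.18 with Dox, a difference of means of -0.42. Those named as blocked by FZD8CRD and as CTNNB1 dependent differed by -0.43 and -0.48. By their names the 3 sets have a common source, and they may share genes. The related set named CTNNB1 independent differed by -0.49 but did not pass (authors' FDR 0.179). Nor did the set named both CTNNB1 dependent and blocked by FZD8CRD, which differed by -0.38 (authors' FDR 0.152). Sets of this source named for genes down with WNT were also lower, by -0.13, -0.16 and -0.07, and did not pass. In all, 29 of the 37 sets were lower, while 47.2% of all sets were higher.

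In wild-type cells 4 of the 37 sets passed, 10.8% against 12.1% of 4333 sets, and all 4 were higher with Dox. The set for degradation of beta-catenin by the destruction complex scored -0.36, -0.44 and 0.06 untreated and -0.07, 0.34 and 0.42 with Dox, a difference of 0.47 with overlapping groups. The sets for signalling by WNT, for the TCF-dependent response and for WNT signalling without beta-catenin differed by 0.23, 0.35 and 0.29. The first 2 of these also had overlapping groups, so that of the 4 only the set without beta-catenin separated untreated from Dox samples. Its gap was narrow, from -0.026 in the highest untreated sample to -0.003 in the lowest Dox one. Several WNT-named sets that did not pass separated too, with Dox higher in all but the noncanonical WNT pathway set (-0.26). In YAPCA cells several that did not pass also separated, all with Dox lower. The share of all sets that separated is not given here, so nothing is read from either. In wild-type cells 31 of the 37 sets were higher, while 61.2% of all sets were higher. None of the 7 sets passed in both genotypes. The difference between genotypes was not tested, since the tables were made separately.

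**Figure D4:**
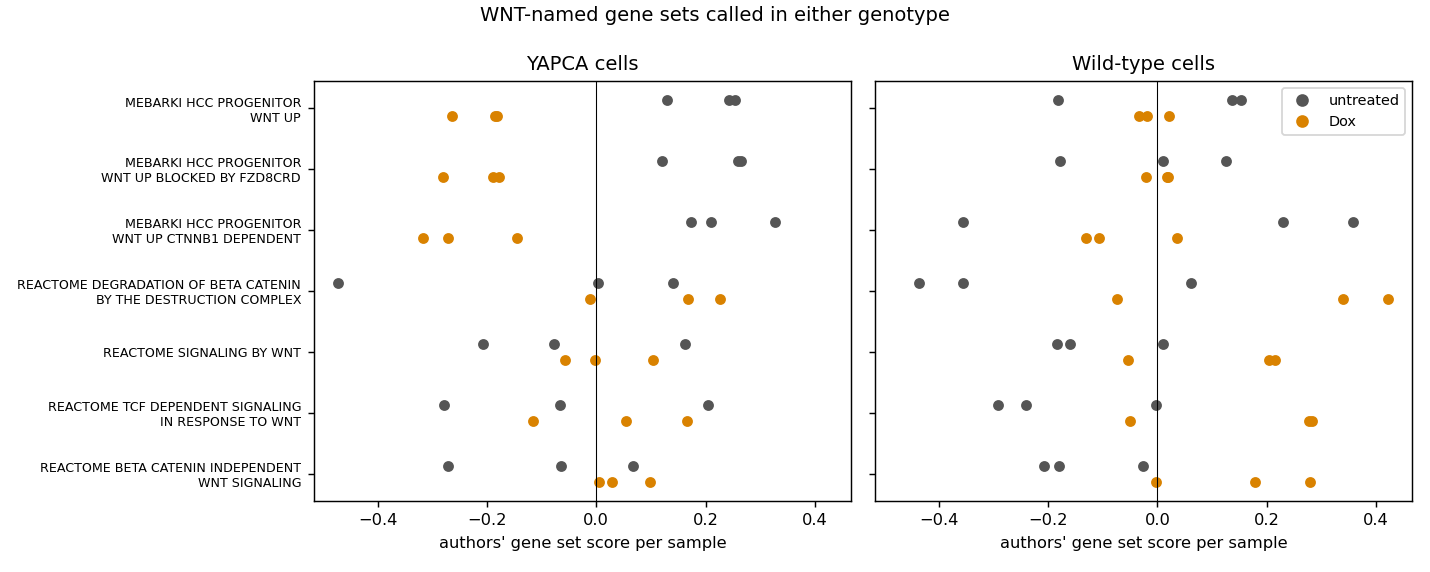
Authors' score per sample (x axis, no unit) of the 7 WNT-named gene sets (y axis) with an FDR below 0.05 in YAPCA cells (left) or wild-type cells (right), with points for the 3 untreated and 3 Dox libraries. The upper 3 sets separate the groups in YAPCA cells, with Dox lower, and the lower 4 are the ones that passed in wild-type cells.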

How the data were processed

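RNA-seq values are a signal per gene and sample, read counts that the authors divided by 1 factor per library, as the deposited columns show. Dividing by that factor gave whole reads for 100% of values (tolerance 0.01). Tools named, without roles, in the submitters' processing notes include HISAT2, featureCounts and DESeq2, and also Bowtie2, Picard, MACS2 and DiffBind, with the build mm10. Their versions and settings, the strand of counting and the pooling of peaks were not given in the sources used here. Deposited log2 fold changes, p-values and FDR are the authors', as are the log2 concentrations per site and group (DiffBind, per the file headers). Wild-type sites are deposited as other text, joined fields read in the order of the YAPCA table. Gene set scores are the authors', by an unnamed tool.

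YAPCA RNA was tested two-sided with limma 3.58.1 on log2(value + 1) (R 4.3.3, intensity trend) over genes with a mean of at least 10. This scale understates changes of low genes. DESeq2 1.42.0 and edgeR 4.0.16 (quasi-likelihood) on recovered reads, TMM scaling, pseudocounts of 0.5 and 5, other filters, a replicate block and leaving out each library were alternatives, and for the further pathway genes and the low members that did not pass these were added after the data were seen. Scripts were tested on simulated data. Reads of replicates differed beyond sampling noise (chi-square per degree of freedom 1.76 to 3.19), and each library counted as a sample. The labels give no batch.

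Sites were assigned to the nearest gene of RefSeq GRCm38.p6, the build of mm10. Motifs were searched in promoters, not in sites, since no genome sequence was used here. The members and lists were chosen with earlier results of these data known. Values are given for members that passed or had a mean of at least 100, up to 4 passing genes per further list by adjusted p, and the site with the smallest FDR for 10 members that passed, in order of RNA adjusted p. Other names were chosen after their values were seen.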

Additional observations from a re-analysis of the deposited data

How the results depend on the processing

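Of the 14 calls, those of Wnt5a, Wnt10b, Fzd1, Fzd5, Fzd7, Dkk2, Dkk3 and Sfrp2, held in every alternative run. DESeq2 did not call Wnt2, Wnt9a, Rspo2, Sfrp1, Sfrp4 and Nkd2, so that 5 members fell and 3 rose. edgeR, TMM scaling, both pseudocounts and no filter on low values called the same 14, and a mean of at least 50 left out Sfrp4 alone by its level. Leaving out 1 library at a time gave 6 to 8 members that fell, 3 to 5 that rose and 2879 to 3583 genes called in all. Among the 10 members with a mean of at least 100 that did not pass, the sign turned for Wnt4 without untreated library 1 (0.04) or 3 (0.03) or Dox library 1 (0.02) or 2 (0.052), for Lrp6 without untreated library 3 (0.0059), and for Fzd3 without untreated library 2 (-0.04) or Dox library 3 (-0.10). On leaving out a library their log2 changes ran from -0.10 to 0.052, from -0.080 to 0.0059 and from -0.10 to 0.072. Of the lower members that did not pass, Axin2 turned sign with DESeq2 (-0.036) and edgeR (-0.026), and on leaving out a library Axin2 ran from -0.30 to 0.28, Rspo3 from -0.13 to 0.38 and Lef1 from -0.13 to 0.015. The cause was not tested. Deviations from the group means, over all tested genes, correlated at -0.0007, 0.036 and 0.085 between libraries of the same replicate number. This was below the 0.1 set for using a block, but low genes weigh as much as high ones in it. With the replicate number as a block, 4350 genes were called against 3757 without it. Lrp5 was added to those that rose (5), and 10 members still fell. The limma adjusted p of Sfrp1 was 2.94e-05 with the block and 0.0184 without. Whether libraries of the same number share an effect was not tested further. For the further pathway genes, 18 of 22 named calls held in every alternative, with 14 to 19 lower on leaving out a library and 9 higher with the block.

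For sites, 40 gained and 3 lost had an FDR below 0.01, and 32 and 3 had an absolute log2 fold of at least 0.5. Within 50 kb of a member there were 118 gained and 17 lost, and leaving predicted and small RNA genes out of the annotation gave 100 and 14. The share gained was 86.2% to 93.0% over these settings. The share over all sites is given only for an FDR below 0.05 (87.2%), so the other settings have no background beside them. Depth limits the low genes, such as Axin2, Rspo3 and Wif1, and the number of sequenced fragments behind the ATAC-seq means is unknown.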

Other observations

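Aes, a relative of the TLE co-repressors that bind TCF factors, is among the genes listed in wild-type cells and was picked out after its values were seen. It was read at 3152, 3128 and 2759.7 untreated and at 3431, 3374 and 3439 with Dox, with a log2 fold change of 0.18 and an adjusted p of 0.0166 in the authors' deposited table. All Dox libraries were above the untreated ones, and the third untreated library was lower than the other 2.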
